A study of Mus musculus with 4 samples.

Results

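The arrays described here, 2 of the 4 in the series, set RNA of cells treated with siRNA against Pnpla6 beside RNA of control cells after 24 h of differentiation. They were chosen by their titles, and the remaining 2 arrays, made at 96 h, served to estimate dye bias and in the spread of the fit, and in the closing section as the other time in a contrast. Both RNAs came from D3, an established mouse embryonic stem cell line, grown as embryoid bodies with 15% serum. LIF, which holds mouse stem cells in the undifferentiated state, was left out. The siRNAs, 1.25 pmol of each, were delivered by lipofection before the cells were seeded, and this group is called the silenced cells. What treatment the controls had, how many cells took up siRNA, and whether the arrays came from separate cultures are not in the labels, so p-values may measure technical spread only. On replicate 1 the silenced RNA carried Cy3 and the control RNA Cy5, and on replicate 2 the dyes were exchanged. All values below are log2 ratios of silenced to control cells unless said otherwise. A ratio per array still holds the bias of its dyes, which cancels in the mean of both arrays. The dye-corrected ratio of an array is that ratio after removing the bias measured for the same probe on the 96 h arrays.

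Pnpla6 encodes neuropathy target esterase, a serine esterase on the cytoplasmic face of the endoplasmic reticulum that removes both fatty acyl chains from phosphatidylcholine and leaves glycerophosphocholine. The protein belongs to the patatin-like phospholipases, a family that also holds the main triglyceride lipase of fat cells. It was named for the delayed axon degeneration that certain organophosphates cause, variants of the human gene are found in hereditary spastic paraplegia, and loss of the gene in mice is lethal around mid-gestation with a placental defect.

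On each 24 h array 43379 spots other than controls were read, and 62.5% to 68.0% of them per channel were well above background, with no saturated spot. Filtering left 21754 genes or transcripts to test, and 13134 of these had a symbol. The number of arrays limits the precision. All 10 markers of embryonic stem cells were well above background in both RNAs. Their summed normalized intensity was 386300 in control and 259236 in silenced RNA on replicate 1, and 226700 and 398453 on replicate 2, an order that turned with the dyes. Of 15 markers of feeder fibroblasts, 8 were above background in control and 7 in silenced RNA, and Col3a1, Col6a1, Dcn, Lum, Fbln5, Postn and Fap were above it in neither. The fibroblast sum was 11825.4 and 10123.6 in control and 10469 and 12011.2 in silenced RNA. None of the 9 fibroblast markers tested passed the threshold, and none had an unadjusted p under 0.05 (limma).

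The targeted transcript was lower in the silenced cells on both arrays. The tested Pnpla6 probe had a normalized intensity of 1850.5 in control and 1116.76 in silenced RNA on replicate 1, and of 1732.97 and 865.24 on replicate 2. Both silenced values lay below both control values. The ratio was -0.73 on replicate 1 and -1.002 on replicate 2, and after dye correction the arrays gave -0.85 and -0.89. The fitted change was -0.87 with a standard error of 0.06 (n = 2 arrays; limma, Benjamini-Hochberg adjusted p = 2.59e-11), which leaves 54.9% of the control level. As scanned, the spot read 876 in Cy3 over a background of 22 for silenced RNA and 2278 in Cy5 over 63 for control RNA on replicate 1. On replicate 2 the silenced spot read 1080 in Cy5 over 61 and the control spot 1353 in Cy3 over 22.5. For this probe control RNA was thus brighter in both dye orientations even before normalization.

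**Figure D1:**
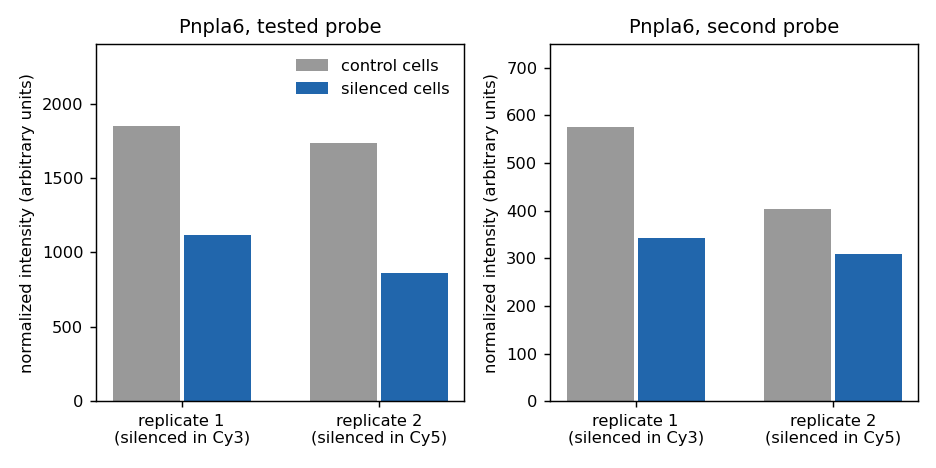
Normalized intensity in arbitrary units of both Pnpla6 probes in control and silenced RNA on each 24 h array; each bar is 1 channel of 1 array. The tested probe fell from 1850.5 to 1116.76 and from 1732.97 to 865.24, and the second probe was lower in silenced RNA on both arrays too.

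A second, dimmer Pnpla6 probe, which had no part in the test, read 576.72 in control and 343.82 in silenced RNA on replicate 1 and 403.736 and 308.664 on replicate 2. Its silenced values also lay below its control values, and its mean ratio of -0.57 leaves 67.5% of the control level. The share of transcript left thus differed between probes, at 54.9% and 67.5%. As scanned, the second probe read 250.5 over 21 for silenced and 698.5 over 60 for control RNA on replicate 1. On replicate 2 it read 381.5 in Cy5 over 64 for silenced and 297.5 in Cy3 over 25 for control RNA. Before normalization its order thus turned with the dyes. In RNA of whole cultures, fewer cells with the transcript and less transcript per cell cannot be told apart. The direction of the Pnpla6 change was the same under all 16 other ways of processing that were tested, from -1.002 to -0.72. The adjusted p was under 0.05 in 6 of them, and it was 0.0762 with a smaller background offset, 0.339 from the 24 h arrays alone and 1 without the dye term. Settings that changed only the filter, the variance model, the terms of the fit or the 96 h arrays left the ratio at -0.87. They use the mean of the same 2 arrays, so their direction was fixed in advance. Some of the 16 also share nearly the same ratios or the same spread, so they are not 16 separate checks.

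The other patatin-like phospholipases did not pass the threshold. Pnpla7, the closest relative of Pnpla6 and likewise a lysophospholipase, had a ratio of 0.02 (limma adjusted p = 0.993). Pnpla2, the adipose triglyceride lipase, had -0.01 on the tested probe and 0.11 on its second. Pnpla3, a lipid droplet protein, had 0.04, and Pnpla5 had -0.02. For Pnpla8, a calcium-independent phospholipase A2 of mitochondria and peroxisomes, 3 probes gave 0.03, 0.06 and 0.04. Pnpla1 was not analysed here. The standard errors of these 5 genes were near 0.06, and none of them differed from 0 by more than its 95% interval. The protein-coding genes beside Pnpla6 in the RefSeq order also stayed near 0. Zfp358 had -0.04, Mcoln1, a lysosomal cation channel, 0.01, Camsap3, which binds microtubule minus ends, 0.02, and Xab2, a splicing and repair factor, 0.00; none passed the threshold. The neighbours Tex45 and Rps23rg1 were not tested.

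Few other transcripts passed the threshold at 24 h, and their fitted changes were mostly small. In all, 81 of 21754 genes or transcripts passed an adjusted p of 0.05 (0.372%), of which 51 rose (0.234%) and 30 fell (0.138%). A gene symbol was known for 36 of them, 21 that rose and 15 that fell, and the other 45 carry only a transcript or probe identifier. Unadjusted p-values under 0.05 were found for 1669 (7.67%). The median absolute ratio over all tested genes was 0.04 and the 99th percentile 0.22, against a median standard error of 0.06, and the smallest change called was 0.27. Only 4 genes or transcripts changed by 1.5-fold or more: Pnpla6, Pou5f1, and 2 without a symbol, A_52_P893105 with 0.72 and AK141862 with 0.62. The lowest fitted values without a symbol, -0.53 for AK011275 and -0.50 for AK053523, came from replicate 1 alone: their dye-corrected ratios were -1.19 and 0.13, and -1.09 and 0.10. The 95% interval left out a change of 1.5-fold or more for 21742 genes or transcripts (99.9%) and a change of 2-fold for all 21754, over a median half-width of 0.13. These intervals rest on a spread shared over genes, with 1 residual and 33.2 prior degrees of freedom. They describe ratios computed with a background offset, which draws the ratios of dim probes towards 0. Only 20327 of the 21754 were well above background at 24 h, and the rest were counted too. For dim or undetected probes the intervals therefore cannot exclude a change of this size in the RNA itself.

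**Figure D2:**
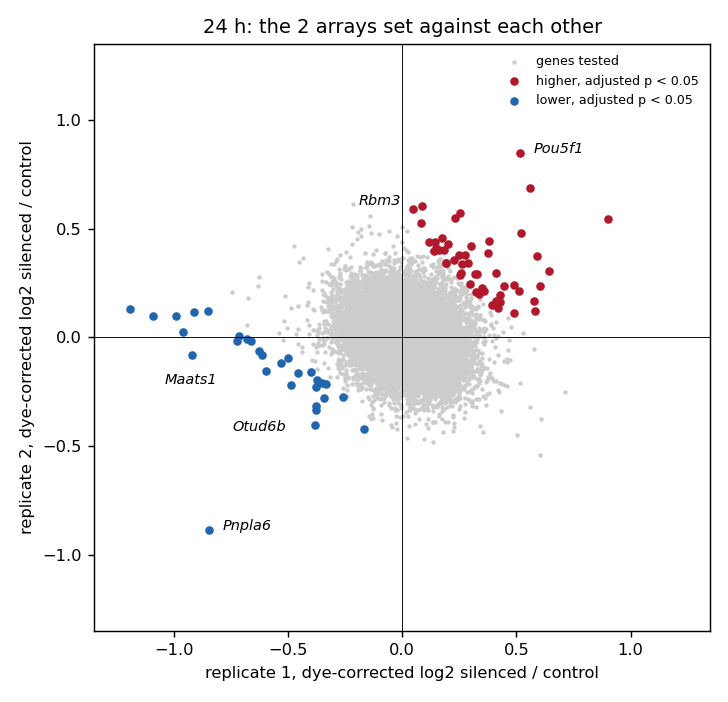
Dye-corrected log2 ratios of silenced to control RNA on replicate 1 (x) against replicate 2 (y) for 21754 genes or transcripts, with those past the threshold marked. Pnpla6 lies at -0.85 and -0.89, far from the rest, while most points form a cloud without a shared direction.

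Over all tested genes the arrays shared little direction. Their ratios correlated at -0.43 before and -0.23 after dye correction, a description over genes measured on the same slide. The correction adds the 96 h estimate on replicate 1 and subtracts it on replicate 2. Error in that estimate therefore lowers the correlation and the share of matching signs. The 96 h arrays lay on slides 1 and 2, so the estimate also holds any difference between slides. The dye bias of a probe at 24 h correlated at 0.70 with that at 96 h. After correction the signs of both arrays matched for 40.9% of all genes and transcripts and for 74 of the 81 called; the call itself favours such genes. A ratio of at least 0.2 in the same direction on both arrays was seen for 41 of the called, 31 higher and 10 lower, and for 81 of all tested (0.372%). The count of called genes depended on the processing. It was 0 in 10 of 16 other settings, among them those with a smaller background offset, with the scanner's processed signals, with the authors' deposited log ratios and without the dye term, which 7 of the 10 lacked. It ranged up to 126 with an intensity trend and robust variances. The 16 settings are not all distinct, since some share nearly the same ratios or the same spread, so their counts are not separate checks.

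Among the 36 called genes with a symbol, 21 moved by at least 0.2 on both arrays after dye correction, 14 upward and 7 downward. The largest rise among them was that of Pou5f1, which encodes the pluripotency factor Oct4. Its normalized log2 intensity was 13.20 in control and 14.77 in silenced RNA on replicate 1, and 14.29 and 14.08 on replicate 2. Control and silenced values thus overlapped, and the uncorrected ratios of 1.58 and -0.21 had opposite signs. This probe carried a large dye bias at both times, -1.06 at 96 h and -0.89 at 24 h (replicate 2 against the mean of the pair). After correction the arrays gave 0.52 and 0.85, and the fitted rise was 0.68 with a standard error of 0.07 (1.61-fold; limma adjusted p = 2.44e-08). Processed copies of this gene occur elsewhere in the genome, and whether the probe also detects them was not tested. Of the 35 calls besides Pnpla6, that of Pou5f1 was the only one kept when the probes of each gene were averaged, although the ratios of 20 of the 35 were the same in that fit, since they have 1 kept probe.

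**Figure D3:**
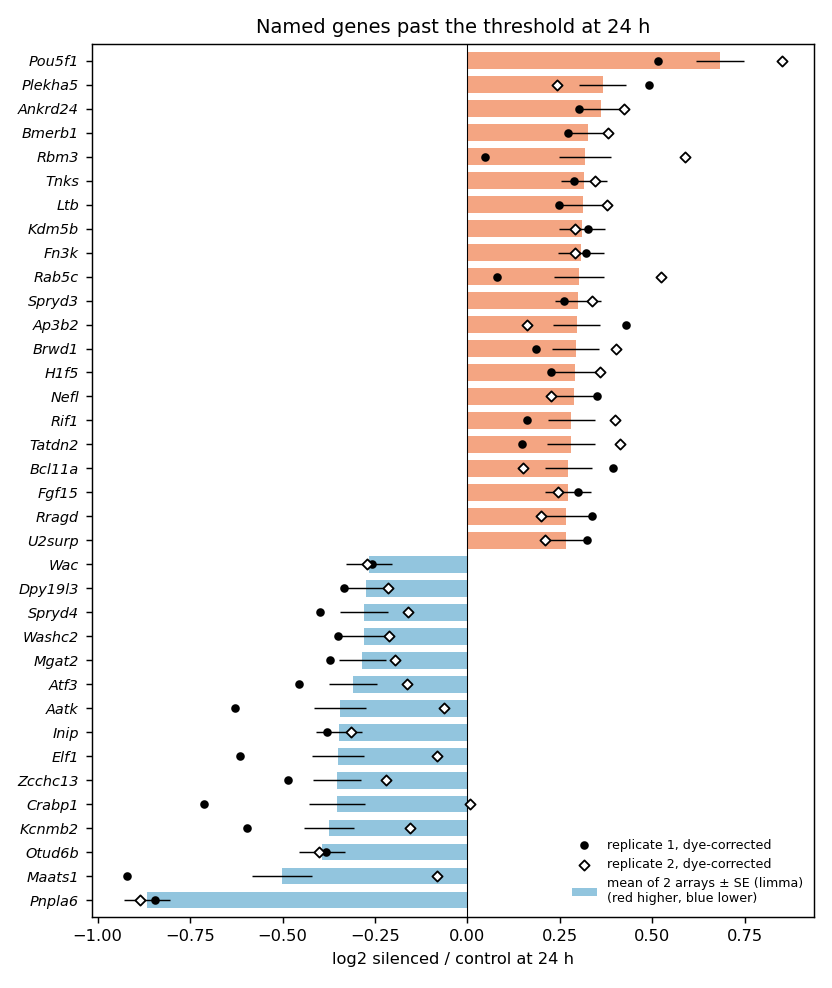
Log2 ratio of silenced to control RNA at 24 h for the 36 genes with a symbol that passed the threshold; bars give the mean of 2 arrays, lines the standard error of the fit, and points the dye-corrected ratio of each array. Pnpla6 stands at -0.87 and Pou5f1 at 0.68, and the other 34 lie between -0.50 and 0.37.

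After Pnpla6 the clearest fall was in Otud6b, a deubiquitinating enzyme. Its normalized log2 intensity was 10.35 in control and 9.99 in silenced RNA on replicate 1 and 10.24 and 9.82 on replicate 2, so both silenced values were below both control values. The fitted fall was to 76.2% of control (-0.39, standard error 0.06, adjusted p = 0.000658, limma). Inip, a small subunit of the SOSS complex that binds single-stranded DNA, had dye-corrected ratios of -0.38 and -0.32 and fell to 78.6%. Zcchc13, a zinc knuckle gene, was dimmer, with 7.12 in control and 6.72 in silenced RNA on replicate 1 and 6.72 and 6.42 on replicate 2. It fell to 78.3%, with control and silenced values that met near 6.72. Washc2, a subunit of the WASH complex that nucleates actin on endosomes, fell to 82.3%, and Dpy19l3, a C-mannosyltransferase of the endoplasmic reticulum, to 82.6%. Wac, an adaptor for histone H2B ubiquitination, fell to 83.2%, with dye-corrected ratios of -0.26 and -0.27 but uncorrected ratios of -0.58 and 0.05.

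The rises were of similar size. Nefl, the light neurofilament chain, had 10.41 in control and 10.67 in silenced RNA on replicate 1 and 10.38 and 10.695 on replicate 2, with both silenced values above both control values (0.29, standard error 0.06, adjusted p = 0.0226, limma). Tnks, tankyrase, a poly-ADP-ribosyltransferase of telomeres and Wnt signalling, rose from 8.23 to 8.65 and from 8.21 to 8.42, again without overlap. Spryd3 rose from 8.99 to 9.27 and from 8.96 to 9.29. Fgf15, a secreted fibroblast growth factor, rose from 8.54 to 8.89 and from 8.49 to 8.69. Ankrd24, with ankyrin repeats, rose by 0.36 and Bmerb1, with a domain that binds Rab proteins, by 0.33, each with both silenced values above both control values. Fn3k, fructosamine-3-kinase, was dim at 6.74 in control and 7.14 in silenced RNA on replicate 1 and 6.86 and 7.07 on replicate 2, and rose by 0.31.

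For other rises the second array showed little before dye correction. Plekha5, a pleckstrin homology protein, had uncorrected ratios of 0.73 and 0.01 and rose by 0.37. Kdm5b, a demethylase of histone H3 lysine 4, had 0.60 and 0.01 and rose by 0.31. Ltb, lymphotoxin beta, had 0.61 and 0.01 and rose by 0.31. The same held for H1f5, a linker histone with 0.55 and 0.03, and for U2surp, a splicing factor with 0.52 and 0.02, which rose by 0.29 and 0.27. Their dye-corrected ratios were 0.21 or more on both arrays. H1f5 belongs to a family of closely similar histone genes, and cross-hybridization was not tested. Rragd, a Rag GTPase that carries amino acid signals to mTORC1, rose by 0.27, and its dye-corrected ratio of 0.20 on replicate 2 is the lowest of these 21 genes.

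The other 15 called genes with a symbol, 7 that rose and 8 that fell, reached 0.2 on only 1 array. Maats1, a gene of cilia, fell by 0.50, from 7.30 to 6.26 on replicate 1, while it read 6.46 in control and 6.49 in silenced RNA on replicate 2. Elf1, an ETS transcription factor, had dye-corrected ratios of -0.62 and -0.08, and Aatk, a membrane kinase, -0.63 and -0.06. Crabp1, which binds retinoic acid, had -0.71 and 0.01, so that its fitted fall of 0.35 came from 1 array. Kcnmb2, a subunit of calcium-activated potassium channels, Mgat2, an N-glycan enzyme, and Spryd4 fell by 0.37, 0.28 and 0.28, and for these both arrays were below 0. Atf3, a stress-induced transcription factor, fell by 0.31 (adjusted p = 0.0156, limma), with 7.61 in control and 7.198 in silenced RNA on replicate 1 and 7.44 and 7.24 on replicate 2. Its silenced values lay below both control values.

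Rises on 1 array were seen for Rbm3, a cold-inducible RNA-binding protein, with dye-corrected ratios of 0.05 and 0.59, and for Rab5c, a GTPase of early endosomes, with 0.08 and 0.52. Brwd1, a bromodomain protein, had 0.19 and 0.40, Rif1, a telomere and replication timing factor, 0.16 and 0.40, and Tatdn2, a nuclease, 0.15 and 0.41. Ap3b2, a neuronal subunit of the AP-3 adaptor, had 0.43 and 0.16, and Bcl11a, a zinc finger repressor, 0.39 and 0.15. The 7 called genes or transcripts with opposite signs on the arrays were all falls, Crabp1 the only one with a symbol. On replicate 1 they had dye-corrected ratios of -1.19 to -0.71 and on replicate 2 of 0.01 to 0.13. They were dim, with a median log2 intensity of 6.56 against 7.96 over all tested. Called falls had a median of 6.88 and called rises of 8.96. The part of signal level in these calls was not tested.

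**Figure D4:**
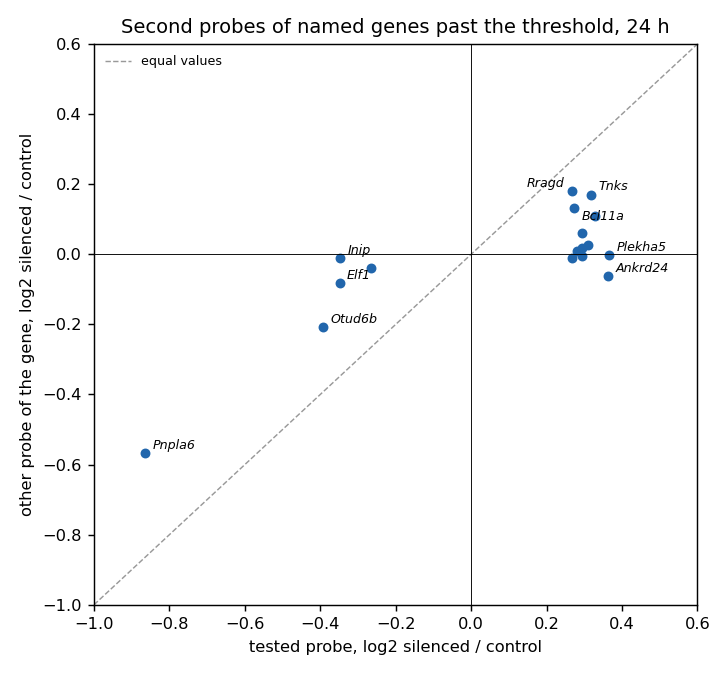
Log2 ratio at 24 h of the tested probe (x) against each other measured probe of the same gene (y), for the 15 called genes that have one. The Pnpla6 pair at -0.87 and -0.57 is far from the others, most of whose second probes lie near 0.

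Other probes of the called genes gave a check that the call did not use. Of the 36 genes, 15 had 17 further probes above background, and 13 of these 17 had the same sign as the tested probe. The share of matching signs over all genes was not computed, and these probes were read on the same arrays. Whether 13 of 17 exceeds that share therefore cannot be told. Only 4 reached 50% of its ratio. These were the second probes of Pnpla6 with -0.57, Otud6b with -0.21, Tnks with 0.17 and Rragd with 0.18. The second Otud6b probe read 725.346 in control and 547.914 in silenced RNA on replicate 1, but 707.216 and 701.792 on replicate 2. The second Tnks probe read 261.966 and 304.693, and 249.855 and 271.938, higher in silenced RNA on both arrays. Against these, Plekha5 had 0.00 on its second probe, Inip -0.01, U2surp -0.01, Rif1 0.01, Kdm5b 0.03 and Wac -0.04. Ankrd24 had -0.06, opposite to its tested probe, and Brwd1 had 0.06, 0.02 and -0.01 on 3 further probes. Bmerb1 had 0.11, Bcl11a 0.13 and Elf1 -0.08. Probes of 1 gene can lie in different transcripts, and which transcripts these detect was not analysed. The other 21 genes, Pou5f1, Nefl and Atf3 among them, had no second measured probe.

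To place the change by function, 22 gene lists were read, with 615 genes of which 556 were tested. Pnpla6, Nefl, Atf3 and Pou5f1 were the only 4 called (0.719%, beside 0.372% of all tested). The list genes all have a symbol, and 36 of the 13134 tested genes with a symbol were called. Pnpla6 was the siRNA target. The lists were chosen with earlier results of these data known. Over all tested genes the median ratio was 0.00 and 50.4% of ratios were above 0.

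**Figure D5:**
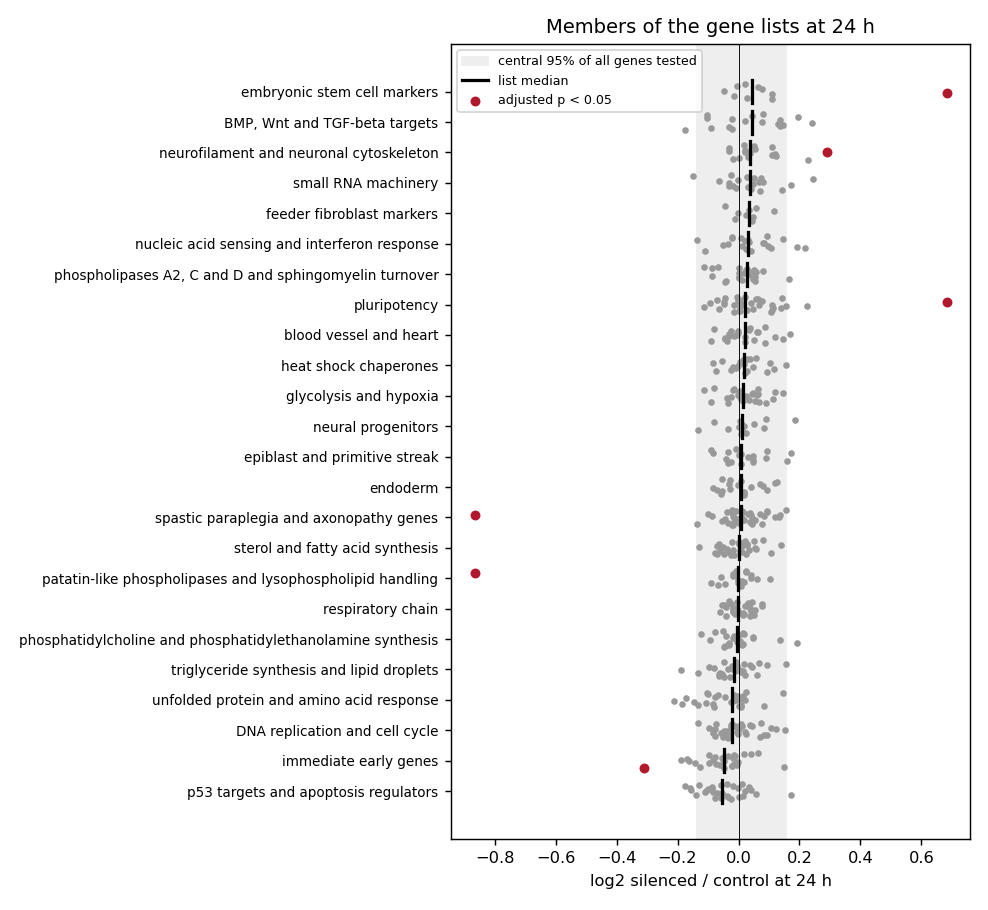
Log2 ratio at 24 h of each tested member of the gene lists, 1 row per list, with the list median marked and called genes in red; the shaded band holds the central 95% of all tested genes. Medians lie near 0 in every list, and the red points are Pnpla6 (-0.87, in 2 lists), Atf3 (-0.31), Nefl (0.29) and Pou5f1 (0.68, in 2 lists).

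The lipid lists around the enzyme gave no call besides Pnpla6 itself. Of the patatin-like phospholipases and the enzymes that handle lysophospholipids, 20 were tested, 9 with ratios above 0, and the median was 0.00. Lypla1, an acyl-protein thioesterase, had 0.10 and Gde1, a glycerophosphodiesterase of the endoplasmic reticulum, -0.09. In phosphatidylcholine and phosphatidylethanolamine synthesis, 23 genes were tested and none was called, with 2 at an unadjusted p under 0.05 (limma) and a median of -0.01. Lpcat2, which reacylates lysophosphatidylcholine, had 0.19 (adjusted p = 0.289) and the choline transporter gene Slc44a1 -0.12. Of 26 tested phospholipases A2, C and D and sphingomyelin enzymes, 20 had ratios above 0, and the median was 0.03. None was called and 1 had an unadjusted p under 0.05, Pla2g6, a calcium-independent phospholipase A2, with 0.16 (adjusted p = 0.41). For triglyceride synthesis and lipid droplets the median of 28 was -0.01, with no call and 3 at an unadjusted p under 0.05. G0s2, an inhibitor of adipose triglyceride lipase, had -0.19, and Plin2, the coat protein of droplets, 0.16. Sterol and fatty acid synthesis had a median of 0.00 over 33, no call, and 1 gene at an unadjusted p under 0.05. Lss, lanosterol synthase, had -0.13 and Ebp, a sterol isomerase, 0.11.

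The axonopathy and neuronal lists held 2 of the called genes. Of 42 tested genes of hereditary spastic paraplegia, only Pnpla6 was called, and the median was 0.01. Zfyve26 had 0.16 (adjusted p = 0.47) and Reep1, which shapes the endoplasmic reticulum, 0.14 (adjusted p = 0.597). Among 17 tested neurofilament and neuronal cytoskeleton genes, 14 had ratios above 0, the median was 0.04, and Nefl rose. Dpysl3, a collapsin response mediator, had 0.23 (adjusted p = 0.109) and Ina, another intermediate filament chain, 0.12, both positive on each array. Nefh, the heavy chain, had 0.02. Of 14 neural progenitor genes, 11 had ratios above 0 around a median of 0.01, none was called and 2 had an unadjusted p under 0.05. Those were Zic2 with 0.19 and Gbx2 with -0.13.

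Lists that bear on the siRNA treatment itself gave no call. Of 20 small RNA machinery genes, 4 had an unadjusted p under 0.05, and the median was 0.04. Tnrc6a, a scaffold of the silencing complex, had ratios of 0.17 and 0.32 on the arrays and a fitted 0.24 (adjusted p = 0.078), Dicer1, which cuts precursors of small RNAs, 0.17, and Ago2, the slicer, 0.14. The fourth, Tsnax, named after its value was seen, had -0.15 (adjusted p = 0.55), and 8 of the 20 had ratios below 0. Of 22 tested genes of nucleic acid sensing and the interferon response, 16 had ratios above 0, the median was 0.03, and 4 had an unadjusted p under 0.05. The bright membrane proteins Ifitm1 and Ifitm3 had 0.22 and 0.19 (adjusted p = 0.167 and 0.288), and 11 genes of this list were not tested. With an intensity trend and robust variances Tnrc6a and Ifitm1 passed, with adjusted p of 0.0257 and 0.041.

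Among stress and growth lists, immediate early genes and p53 targets lay mostly below 0. Of 30 immediate early genes 26 had ratios below 0, 11 on both arrays after dye correction, with a median of -0.05. Of all 21754 tested, 4290 were below 0 on both arrays after dye correction. Among the 30 immediate early genes Atf3 alone was called and 6 had an unadjusted p under 0.05. Ier5 had -0.19 (adjusted p = 0.262) and Junb -0.17. Of 30 p53 targets and apoptosis regulators 22 had ratios below 0, 16 of them on both arrays, and the median was -0.06. None was called and 5 had an unadjusted p under 0.05, among them Sesn1 with -0.18, Gdf15 with -0.16 and Bcl2l11, a trigger of apoptosis, with 0.17. The unfolded protein and amino acid response had a median of -0.02 over 28, no call, and 5 at an unadjusted p under 0.05, Herpud1 with -0.21, Chac1 with -0.18 and Ppp1r15a with -0.17 among them. Heat shock chaperones had 0.02 over 20, no call, and 1 at an unadjusted p under 0.05, Hspa1a with 0.15. These medians kept their sign under all 7 settings of background, signal, scaling and probe choice, from -0.06 to -0.04 for immediate early genes and from -0.07 to -0.04 for p53 targets.

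In the cell cycle list the median of 37 was -0.02, none was called and 2 had an unadjusted p under 0.05, Cdkn1b with 0.15 and Top2a with -0.13. Glycolysis and hypoxia genes had a median of 0.02 over 28 with no call and 1 at an unadjusted p under 0.05, Pfkl with 0.14. The 31 respiratory chain genes lay between -0.06 and 0.08 around 0.00, with no call and none at an unadjusted p under 0.05 (limma).

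Differentiation lists were as flat apart from Pou5f1. Of 33 pluripotency genes 22 had ratios above 0, 12 on both arrays after dye correction, with a median of 0.02. Of all 21754 tested, 4600 were above 0 on both arrays after dye correction. Besides Pou5f1, called above, 4 of the 33 had an unadjusted p under 0.05. Lefty1, a Nodal antagonist, had 0.22 (adjusted p = 0.156, and 0.0421 with an intensity trend and robust variances) and Lefty2 0.16. Nanog had 0.11, with 0.13 and 0.10 on the arrays after dye correction. Dppa5a, a germ cell and stem cell gene with a very bright probe, had uncorrected ratios of -0.92 and 1.14, which the correction turned into 0.13 and 0.09. Of 18 epiblast and primitive streak genes none was called and 2 had an unadjusted p under 0.05, Otx2 with 0.17 and Eomes with 0.16. The 19 endoderm genes gave a median of 0.01, no call and none at an unadjusted p under 0.05, led by the laminin genes Lamc1 with 0.13 and Lamb1 with 0.12. In the 25 blood vessel and heart genes the median was 0.02, none was called and 2 had an unadjusted p under 0.05, the cardiac light chain Myl2 with 0.17 and the VEGF receptor Flt1 with 0.15. Hand1 was not well above background in both arrays of either RNA.

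Targets of BMP, Wnt and TGF-beta signalling had the highest share of low p-values of any list, 7 of 17 at an unadjusted p under 0.05 (41.2%, beside 7.67% of all tested), 6 above and 1 below 0, around a median of 0.05. None passed the adjusted threshold. Id4, an inhibitor of basic helix-loop-helix factors, had ratios of 0.35 and 0.13 on the arrays and a fitted 0.24 (adjusted p = 0.0836). Skil, a repressor of SMAD signalling, had 0.20 (adjusted p = 0.27). Axin2, a Wnt feedback gene, was below 0 on both arrays with -0.19 and -0.16 and a fitted -0.17 (adjusted p = 0.356).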

How the data were processed

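Per the file headers, the authors read the arrays with Agilent Feature Extraction 10.7.1.1; the submitters' processing notes list limma too, with no version. Of the deposited scanner columns, spot and local background intensity (arbitrary units) were used, the scanner's own processed intensity served as an alternative, and the p-value of each spot was set aside. The authors' series table of log10 ratios equals the scanner's ratio, turned to silenced over control on replicate 1, within 5e-06.

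Median spot and background signals were corrected with normexp (offset 50) and loess within each array, control spots at weight 0, in R 4.3.3 with limma 3.58.1. Probes well above background on both arrays of at least 1 RNA group were kept (28082 of 41174), and the brightest probe stood for each gene. RefSeq accessions named 24375 probes; 16799 kept their own identifier. In limma, the ratios of all 4 arrays were fitted to 1 mean for each time plus a dye term. Dye orientation coincides with the replicate number, so this term is also the replicate block. Deviations of same-numbered arrays from the time means correlated at 0.70 across genes. Dye orientation and replicate number cannot be told apart as the source of this correlation. Tests were two-sided, with Benjamini-Hochberg adjustment over all 21754, and the script was tested on simulated data.

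The members and the gene lists were chosen with earlier results of these data known. Named are Pnpla6, its family and neighbours, called genes with a symbol, and of each list up to 3 members with the smallest p; a few genes that this rule selects are not reported here. Alternatives changed the background step, the signal, scaling, filter, probe choice, dye term, slide, variance model and arrays used. The array design is on mm8; no coordinates or sequences are given.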

Additional observations from a re-analysis of the deposited data

Results flagged for a closer look

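For 108 named genes the ratio at 96 h minus that at 24 h was tested as a contrast in the same fit. It differed from 0 for 48 genes, 28 of the 36 called at 24 h among them, with limma adjusted p up to 0.0434. The share over all tested genes is not given here, so whether named genes differ more often than others cannot be read from this count. No cause was weighed. The 24 h value enters each difference and also chose the called genes, so the difference is not independent of that choice.

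Below the 24 h value at 96 h were genes with a positive 24 h ratio. The difference was -1.74 for Pou5f1, -1.16 for Nefl, -1.06 for Plekha5, -0.998 for H1f5, -0.77 for Rragd, -0.73 for Tnks and -0.68 for Rab5c. It was -0.65 for Bmerb1, -0.65 for Tatdn2, -0.64 for Rbm3, -0.63 for Kdm5b, -0.62 for Bcl11a, -0.61 for U2surp, -0.60 for Rif1, -0.58 for Ankrd24 and -0.58 for Brwd1. Smaller differences were -0.43 for Fgf15 and -0.29 for Spryd3. Among list members that were not called at 24 h it was -0.59 for Zic2, -0.49 for Ina, -0.40 for Col1a2, -0.38 for Lefty1, -0.37 for Cdkn1c, -0.35 for Skil, -0.33 for Cdkn1b, -0.33 for Dicer1 and -0.30 for Bcl2l11.

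Above the 24 h value at 96 h were genes with a negative 24 h ratio. Pnpla6 itself had a difference of 0.87, from -0.87 at 24 h to 0.01 at 96 h. The difference was 0.61 for Inip, 0.60 for Washc2, 0.52 for Wac, 0.49 for Maats1, 0.46 for Crabp1, 0.42 for Elf1, 0.40 for Mgat2, 0.37 for Aatk and 0.32 for Kcnmb2. For members that were not called it was 0.46 for Gdf15, 0.45 for G0s2, 0.39 for Gde1, 0.37 for Slc44a1, 0.33 for Ppp1r15a and 0.30 for Herpud1. Further from 0 on the side of the 24 h ratio went Hspa1a with 1.04, Pfkp with 0.37, Fbln2 with 0.36, Pnpla3 with 0.36 and Junb with -0.32. Of the genes listed before these, some ended near 0 at 96 h, such as Pnpla6 and Maats1 (-0.01). Others passed 0 to a larger ratio of opposite sign, such as Pou5f1 from 0.68 to -1.05, Nefl from 0.29 to -0.87 and Gde1 from -0.09 to 0.30.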

How the results depend on the processing

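The count of 81 called genes held within 1.5 times in 2 of 16 alternatives, at 113 of 32970 without a filter on dim probes and at 82 (57 higher, 25 lower) with probes well above background everywhere. It was 26 (22 higher, 4 lower) without background correction, 42 (20 and 22) with median centring in place of loess, 9 (8 and 1) with probes averaged per gene, and 126 (95 and 31) with an intensity trend and robust variances, 71 of them shared with the 81. It was 0 with an offset of 16 (1615 at an unadjusted p under 0.05), with processed signals (1543), with the authors' deposited log ratios (1571), without the replicate block (216), with the 24 h arrays alone (193) and with the slide as block (193). Leaving out any 1 of the 4 arrays, which leaves no residual degree of freedom unless the dye term is dropped too, gave 0 called genes, with 193 to 296 at an unadjusted p under 0.05, so that the array and the term cannot be told apart. The cause was not tested where the offset or the signal changed. Fits without the dye term keep dye bias in the spread. Several settings overlap. Processed signals and deposited ratios hold nearly the same values. The fits with the 24 h arrays alone, with the slide as block and without either 96 h array all take their spread from the 24 h pair. Pnpla6 kept its direction throughout, although its mean could not change where only the filter, variance model, fit terms or 96 h arrays did. It had -0.89 (adjusted p = 0.0762) with offset 16, -0.92 with processed signals (0.648) and with the deposited ratios (0.627), and -0.87 without the replicate block (adjusted p = 1), with the 24 h arrays alone and with the slide as block (both 0.339). Leaving out each replicate gave -1.002 to -0.73, and a single dye-corrected array -0.85 or -0.89. With the dye term dropped as well, the direction of 6 of the 35 other called genes turned without 24 h replicate 1 and that of 1 without 24 h replicate 2. In single dye-corrected arrays 1 of the 35, Crabp1, turned. The call itself favours equal signs there, since the difference between the dye-corrected arrays is also the residual of the fit.

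With 1 array left and no dye correction, ratios ranged from -0.21 to 1.58 for Pou5f1, -1.04 to 0.037 for Maats1, -0.80 to 0.10 for Elf1, -0.80 to 0.091 for Crabp1, -0.059 to 0.62 for Tatdn2, -0.58 to 0.053 for Wac and -0.11 to 0.74 for Rbm3. Of genes not called they ranged from -0.00042 to 0.21 for Lypla1, -0.0202 to 0.29 for Mboat2, -0.18 to 0.00998 for Smpd4, -0.069 to 0.26 for Bag3, -0.27 to 0.0096 for Top2a, -0.098 to 0.55 for Lefty1, -0.092 to 0.34 for Lamc1, -0.0095 to 0.25 for Pfkp, -0.047 to 0.28 for Egln3, -0.024 to 0.18 for Ndufv1, -0.049 to 0.28 for Fbln2, -0.0069 to 0.22 for Ebp, -0.054 to 0.36 for Hspa1a, -0.20 to 0.36 for Sdhb and -0.92 to 1.14 for Dppa5a. Hand1, at background, had -0.047 with processed signals and with the deposited ratios. Medians near 0 changed sign with the background, signal or scaling for patatin-like phospholipases, sterol and fatty acid synthesis and the respiratory chain, and with averaged probes for endoderm.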
